A study of Mus musculus with 10 samples.

Results

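Peroxisomes are membrane-bound organelles that shorten very-long-chain, branched and dicarboxylic acyl-CoAs, build bile acid and ether lipid precursors, and oxidise glyoxylate precursors, urate and some amino acids. Their oxidases release hydrogen peroxide, which catalase breaks down. The PEX proteins, or peroxins, insert membrane proteins, import matrix enzymes and divide the organelle. In rodent liver the enzymes are known for their strong dependence on the nuclear receptor PPARα, and the organelle is abundant in hepatocytes.

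A list of 47 genes of these functions was followed in mouse liver, chosen by gene symbol: 13 peroxins and 34 genes of peroxisomal metabolism, out of 31218 genes in the deposited table. All 47 symbols had a single row. The livers came from 5 hepatocyte-specific Me1 knockout mice (HKO, genotype label Me1 Alb/Alb) and 5 floxed wild-type littermates (Flox, genotype label Me1 flox/flox). Me1 encodes cytosolic malic enzyme, an NADPH-producing enzyme. Both groups ate a high-fat diet for 16 weeks, and the series set out to study Me1 in fatty liver disease. The Alb label is the only mention of how deletion was restricted to hepatocytes. The labels used here give no age, sex or preparation batch, and do not say which mice shared a litter.

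Poly(A) RNA of each liver was sequenced as 150-base read pairs, and each liver had between 52790000 and 60765120 gene counts. Levels below are in CPM, counts relative to the library total after scaling with the trimmed mean of M values (TMM), or, where genes are compared with each other, in the deposited FPKM, which also divides by gene length. Me1 was at 20.5 to 26.9 CPM in HKO livers, against 145 to 228 CPM in Flox livers, with no overlap (exact permutation test on FPKM, two-sided, p = 0.00794, the smallest that 5 against 5 allows). HKO 4 and HKO 5 stood apart: the 8 skeletal muscle markers summed to 133.4 and 147.3 FPKM there, against 2.23 to 2.86 FPKM in HKO 1 to 3 and 0.176 to 2.22 FPKM in Flox livers, and the 9 epidermal markers summed to 168.9 and 179.4 FPKM, against 10.3 to 12.2 FPKM in HKO 1 to 3 and 5.02 to 7.91 FPKM in Flox livers. The 9 hepatocyte markers in the table, Alb and Apoa1 among them, summed to 29450 to 34360 FPKM in HKO livers and 34200 to 39180 FPKM in Flox livers. In TMM-scaled CPM they summed to 67340 to 83563 CPM in HKO livers and 94893 to 110204 CPM in Flox livers, without overlap. Macrophage markers summed to 183.5 to 228.5 FPKM in HKO livers and 84.9 to 189.6 FPKM in Flox livers, and stellate and fibroblast markers to 46.5 to 85.1 FPKM in HKO livers and 23.2 to 45.2 FPKM in Flox livers. In CPM both sums overlapped between groups. Macrophage markers were at 409 to 517 CPM in HKO and 269 to 509 CPM in Flox livers, and stellate and fibroblast markers at 337 to 562 and 183 to 392 CPM. The part of these differences in the results on peroxisomal genes was not tested. Where a fit without HKO 4 and HKO 5 lost a call, its value is given beside the result.

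Members of both classes fell in HKO livers, and Agxt, Hao1 and Pipox, enzymes of glyoxylate, glycolate and sarcosine, had the lowest log2 fold changes. Of the 46 members with enough counts to test, 19 (41.3%) fell and 0 rose at a Benjamini-Hochberg adjusted p under 0.05 in edgeR's quasi-likelihood test, where 6.4% of all 18065 tested genes fell and 4.86% rose. Among the 8108 tested genes at a mean of 10 CPM or more, which include 44 members, 12.8% fell. At an unadjusted p under 0.05, 1 member, Far1, was higher and 23 were lower. Far1 was a low member, at 0.531 FPKM, and was highest in HKO 4 and HKO 5. DESeq2 called 22 members lower and 0 higher, where it called 1626 of all 18065 tested genes lower and 1566 higher, more than edgeR did (1156 and 878). Quantile normalization called Cat higher, where 873 of all tested genes rose. A fit on unscaled FPKM called Gnpat higher, where 3212 of all tested genes rose. The median log2 fold change, HKO over Flox, was -0.31 over the members and 0.016 over all tested genes. In bulk liver RNA, fewer hepatocytes and less of a transcript per hepatocyte cannot be told apart.

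Peroxins and metabolic genes shared the direction but not the spread. Of the peroxins 5 of 13 fell (38.5%), with a median log2 fold change of -0.28 and a range of -0.48 to -0.07. Of the tested metabolic genes 14 of 33 fell (42.4%), with a median of -0.39 and a range of -1.23 to 0.43. The upper end was Far1, and the next highest was Abcd2 at 0.19. All 13 peroxin estimates were below 0 with TMM scaling, although Pex2, Pex3, Pex7 and Pex13 were above 0 on unscaled FPKM and Pex7 also under quantile normalization and without HKO 4 and HKO 5. Unscaled FPKM moves the median of all tested genes to 0.14, and all 13 peroxins were below that median. Without HKO 4 and HKO 5, 3 peroxins and 13 metabolic genes fell, and 0 members rose, where 2.91% of all tested genes fell and 2.45% rose, and the medians were -0.26 for peroxins and -0.24 for metabolic genes.

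**Figure D1:**
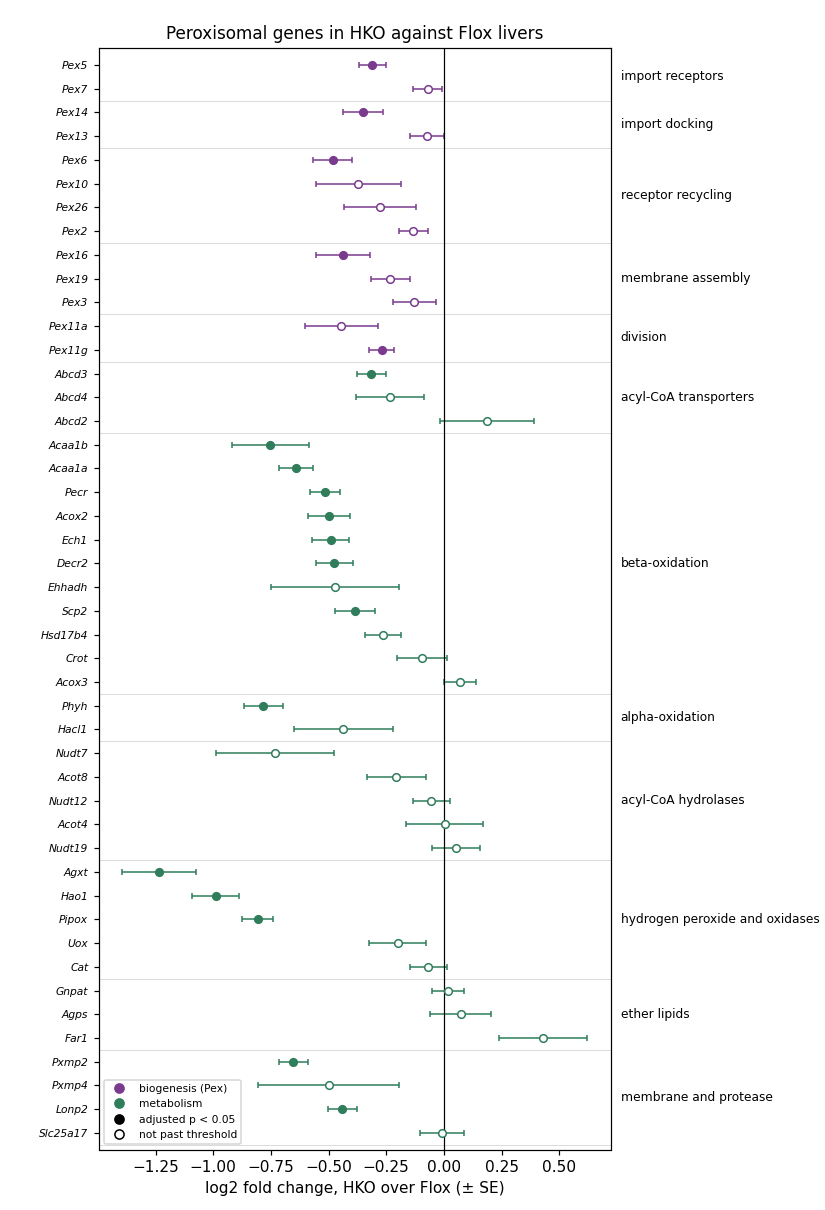
Log2 fold change, HKO over Flox, with its standard error for the 46 tested members, grouped by role; filled points passed an adjusted p of 0.05 in edgeR and colours mark peroxins and metabolic genes. Most points lie left of 0, the peroxins between -0.48 and -0.07, and the metabolic genes reach -1.23; with unscaled FPKM or quantile normalization some open points cross 0.

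The 2 classes also differ in level. Per length, the peroxins summed to 229 FPKM in HKO livers and 248 FPKM in Flox livers (means of 5 livers each), while the metabolic genes summed to 4791 FPKM in HKO livers and 5580 FPKM in Flox livers. These sums cover 13 and 34 genes, whose median levels were 10.95 and 57.3 FPKM. They are not TMM scaled. In TMM-scaled CPM the peroxins summed to 865 CPM in HKO livers and 1074 CPM in Flox livers, and the tested metabolic genes to 15486 and 20244 CPM. Within each liver, the peroxins made up 5.29 ± 0.114% of all member counts in HKO livers and 5.04 ± 0.244% in Flox livers (SD, n = 5 each), a share that does not depend on library scaling and whose ranges overlapped, at 5.15 to 5.41% in HKO livers and 4.74 to 5.25% in Flox livers.

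Among import receptors, Pex5, which binds the C-terminal signal of most matrix enzymes, fell and Pex7, which binds the rarer N-terminal signal, did not pass the test. Pex5 was at 98.2, 111.6, 108.8, 98.8 and 100.4 CPM in HKO 1 to 5, against 127.9, 132.6, 132.8, 121.9 and 126.6 CPM in Flox 1 to 5. Every HKO liver was below every Flox liver, a gap of 19.3% between fitted levels (log2 fold change -0.31 ± 0.06 SE, edgeR adjusted p = 0.00683). Pex7 averaged 59.3 ± 4.86 CPM in HKO livers and 62.3 ± 1.9 CPM in Flox livers (SD, n = 5 each).

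Imported cargo docks at Pex14 and Pex13 in the membrane. Pex14 was at 72.3, 66.5, 69.5, 59.9 and 62.3 CPM in HKO 1 to 5, against 100.3, 86.2, 73.4, 81.3 and 80.4 CPM in Flox 1 to 5. The groups do not overlap, but HKO 1 and Flox 3 lie close together (log2 fold change -0.35 ± 0.09 SE, edgeR adjusted p = 0.0245). The Pex14 call is lost without HKO 4 and HKO 5 (adjusted p = 0.136), without HKO 4 (0.0503), without HKO 5 (0.0644) and without Flox 2 (0.0552). Pex13 averaged 50.3 ± 4.94 CPM in HKO livers and 52.9 ± 2.58 CPM in Flox livers (SD, n = 5 each). A gene on the opposite strand, Pus10, overlaps Pex13 and had 38.7% of its counts. The sources used here do not state if reads were assigned by strand.

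Used receptors are ubiquitinated by the RING proteins Pex2 and Pex10 and pulled out of the membrane by the ATPase Pex6, which Pex26 anchors. Pex6 had the lowest log2 fold change of the peroxins. It was at 63.8, 80.1, 61.0, 62.9 and 61.1 CPM in HKO 1 to 5, against 88.5, 89.7, 84.9, 93.8 and 102.5 CPM in Flox 1 to 5. HKO 2 was the one HKO liver near the Flox range and the groups did not overlap (log2 fold change -0.48 ± 0.09 SE, edgeR adjusted p = 0.00547). Pex6 counts were 188 ± 24.9% of Pex2 counts in HKO livers and 240 ± 6.10% in Flox livers (SD, n = 5 each), a ratio chosen after the values were seen. Pex2, Pex10 and Pex26 did not pass, with log2 fold changes of -0.13, -0.37 and -0.28.

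Membrane proteins are inserted by Pex3, Pex16 and Pex19. Pex16 was at 84.3, 68.2, 73.9, 61.1 and 72.2 CPM in HKO 1 to 5, against 123.4, 93.3, 90.3, 99.7 and 80.2 CPM in Flox 1 to 5. HKO 1 exceeded Flox 5, so the groups overlap (log2 fold change -0.44 ± 0.12 SE, edgeR adjusted p = 0.0326). The Pex16 call is the weakest of the 19. It is lost without HKO 4 and HKO 5 (adjusted p = 0.150) and when HKO 2 (0.0695), HKO 3 (0.0582), HKO 4 (0.0669), HKO 5 (0.0716), Flox 2 (0.0572) or Flox 4 (0.0702) is left out alone. Pex19, a cytosolic chaperone for membrane proteins, averaged 136.4 ± 9.03 CPM in HKO livers and 160.2 ± 19.6 CPM in Flox livers (SD, n = 5 each; edgeR adjusted p = 0.106), and Pex3 had a log2 fold change of -0.13.

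Pex11 proteins elongate the membrane before division. Pex11g was at 36.6, 40.0, 39.1, 39.7 and 36.9 CPM in HKO 1 to 5, against 47.03, 44.8, 46.6, 49.0 and 44.5 CPM in Flox 1 to 5. The livers of each group were within a few CPM of each other and the groups did not overlap (log2 fold change -0.27 ± 0.05 SE, edgeR adjusted p = 0.00865). Pex11a, the highest peroxin per length at 57.3 FPKM over all livers and a known PPARα target, spread far more, from 129.0 to 218.3 CPM in HKO livers and from 186.9 to 307.4 CPM in Flox livers (log2 fold change -0.44 ± 0.16 SE, edgeR adjusted p = 0.0962). The opposite-strand gene Gm44775 overlaps Pex11g and shares 39.9% of the 31-base words of its transcripts, and it had 0.875% of the counts of Pex11g.

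Acyl-CoA entry into the organelle is served by Abcd3, which carries branched, dicarboxylic and bile acid precursor acyl-CoAs. Abcd3 was at 518.9, 564.6, 546.0, 503.8 and 545.2 CPM in HKO 1 to 5, against 713.0, 639.8, 619.4, 692.2 and 666.3 CPM in Flox 1 to 5. The groups were apart, with the HKO livers 19.6% lower (log2 fold change -0.31 ± 0.06 SE, edgeR adjusted p = 0.0101). Abcd2, a carrier of very-long-chain acyl-CoAs, overlapped between groups at 35.1 ± 5.84 CPM in HKO livers and 30.9 ± 9.76 CPM in Flox livers (SD, n = 5 each). Abcd4, a relative known chiefly for lysosomal cobalamin export, had a log2 fold change of -0.24 and did not pass.

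Peroxisomal beta-oxidation, the largest role with 11 members, had the most falling members. Of these 11, 7 fell (63.6%, against 6.4% of all tested genes). In the role of catalase, the oxidases and Agxt, 3 of 5 tested genes fell (60%). With TMM scaling 10 of 11 beta-oxidation estimates were below 0. Hsd17b4 and Crot were above 0 under quantile normalization, and Crot also on unscaled FPKM. Acaa1a, a thiolase that cleaves the shortened chain, was at 202.7, 207.3, 220.1, 185.0 and 204.6 CPM in HKO 1 to 5, against 326.9, 280.8, 308.1, 351.9 and 322.2 CPM in Flox 1 to 5. All HKO livers were below all Flox livers, by 35.9% between fitted levels (log2 fold change -0.64 ± 0.07 SE, edgeR adjusted p = 0.000528). Its neighbour copy Acaa1b, the second mouse thiolase, averaged 945 ± 219 CPM in HKO livers and 1591 ± 270 CPM in Flox livers (SD, n = 5 each), and it fell by 0.75 on the log2 scale with an SE of 0.17 (edgeR adjusted p = 0.0161). The pair shares sequence, 40.0% of the 31-base words of Acaa1b occurring in Acaa1a, so how the authors' counting split their reads is uncertain. Acaa1a counts were 22.5 ± 5.15% of Acaa1b counts in HKO livers and 20.3 ± 3.14% in Flox livers (SD, n = 5 each).

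Among the other falling members of this role were Pecr, Ech1 and Decr2. Pecr, a trans-2-enoyl-CoA reductase, was at 112.6, 112.1, 119.2, 94.9 and 107.4 CPM in HKO 1 to 5, against 156.4, 153.4, 160.9, 151.2 and 159.0 CPM in Flox 1 to 5. Ech1, a dienoyl-CoA isomerase, was at 387.7, 411.4, 336.3, 326.1 and 327.6 CPM in HKO 1 to 5, against 548.9, 492.2, 476.2, 513.5 and 484.5 CPM in Flox 1 to 5. Decr2, the peroxisomal dienoyl-CoA reductase, was at 233.0, 236.7, 205.5, 183.3 and 199.6 CPM in HKO 1 to 5, against 322.5, 281.5, 284.7, 292.0 and 291.4 CPM in Flox 1 to 5. In each of these genes the highest HKO liver was below the lowest Flox liver. Their log2 fold changes were close, at -0.52 ± 0.07 SE for Pecr (edgeR adjusted p = 0.000933), -0.49 ± 0.08 SE for Ech1 (adjusted p = 0.00404) and -0.48 ± 0.08 SE for Decr2 (adjusted p = 0.00407).

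Of the oxidases that open the beta-oxidation cycle, Acox2, which acts on branched chains and bile acid intermediates, fell (214 ± 15.6 CPM in HKO livers, 302.5 ± 39.2 CPM in Flox livers, SD, n = 5 each; log2 fold change -0.50 ± 0.09 SE, edgeR adjusted p = 0.00660). Acox3, another branched-chain oxidase, had a log2 fold change of 0.07. Scp2, which yields a thiolase for branched chains and a sterol carrier, also fell (log2 fold change -0.39 ± 0.09 SE, edgeR adjusted p = 0.0165). Its groups overlapped at HKO 1 and Flox 3, and the call is lost without HKO 4 and HKO 5 (adjusted p = 0.0763). A processed copy, Scp2-ps2, shares 33.4% of the 31-base words of Scp2.

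The bifunctional enzymes and carnitine octanoyltransferase did not pass. Hsd17b4, the bifunctional enzyme of branched chains, averaged 598 ± 53.5 CPM in HKO livers and 718 ± 45.9 CPM in Flox livers (SD, n = 5 each), without overlap and just outside the threshold (edgeR adjusted p = 0.0507). Ehhadh, the bifunctional enzyme most inducible by PPARα ligands, was at 1127, 985, 564, 469 and 716 CPM in HKO 1 to 5, against 1731, 856, 871, 923 and 974 CPM in Flox 1 to 5. HKO 1 and HKO 2 were above Flox 2 to 5, HKO 3 to 5 were below all Flox livers, and Flox 1 was far above the rest (log2 fold change -0.47 ± 0.28 SE, edgeR adjusted p = 0.306). Crot, which passes medium chains to carnitine for export, had a log2 fold change of -0.10, a direction that turns to 0.26 under quantile normalization and to 0.13 on unscaled FPKM.

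Ehhadh shared that pattern with Pex11a, Hacl1 and Pxmp4, 4 genes picked out after their values were seen. In each, HKO 1 and HKO 2 were the highest HKO livers and HKO 3 to 5 were below every Flox liver. Nudt7 ran the other way, with HKO 1 and HKO 2 lowest. Pxmp4, Ehhadh, Nudt7 and Hacl1 had the largest coefficients of variation among HKO livers, at 40.3%, 36.1%, 33.4% and 28.7%. Pxmp4 (log2 fold change -0.50 ± 0.31 SE, edgeR adjusted p = 0.328) and Nudt7 (-0.73 ± 0.26 SE, edgeR adjusted p = 0.0956) did not pass.

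**Figure D2:**
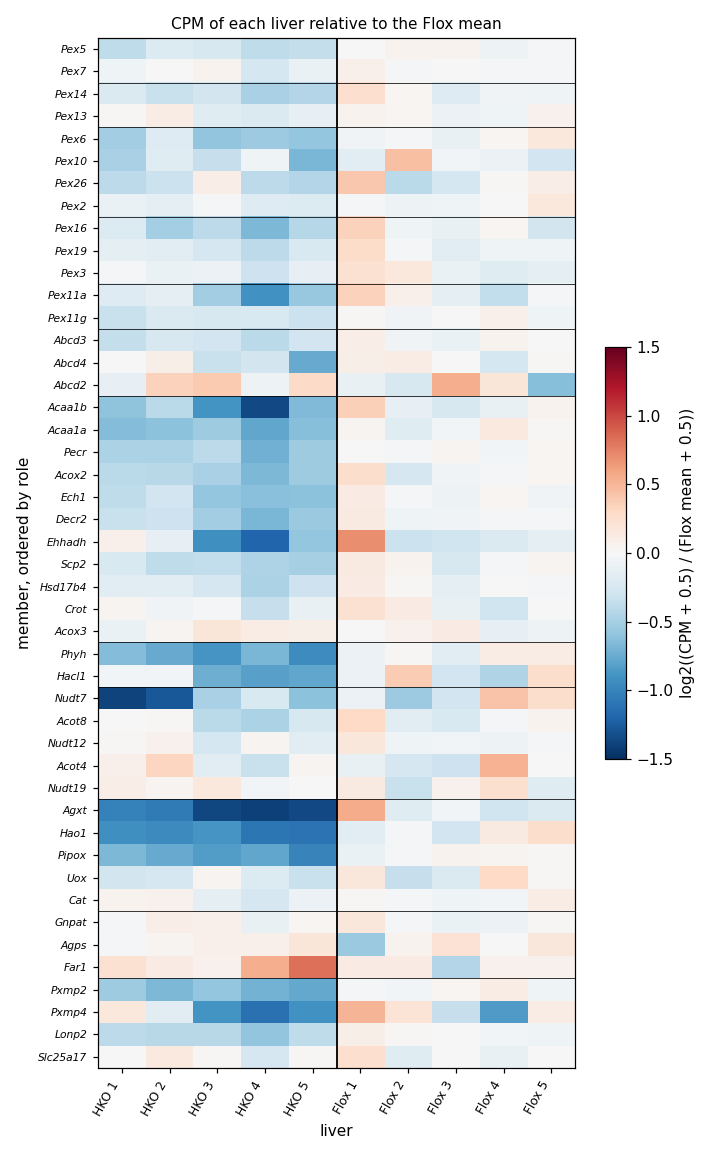
Log2 ratio of the CPM in each liver to the mean of the Flox livers (0.5 CPM added to both) for the 46 tested members, ordered by role, HKO livers left of the line and Flox livers right of it. Rows of called members are blue in all 5 HKO columns, while Ehhadh, Pxmp4 and Hacl1 are blue mainly in HKO 3 to 5 and Nudt7 is darkest in HKO 1 and HKO 2.

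Alpha-oxidation removes a carbon from phytanic acid so that beta-oxidation can follow. Phyh, the hydroxylase of phytanoyl-CoA and the third member by level at 715 FPKM, was at 1255, 1167, 1070.3, 1226 and 1028 CPM in HKO 1 to 5, against 1865, 1997, 1762, 2133 and 2132 CPM in Flox 1 to 5. The HKO livers were 41.9% lower with a wide gap between groups (log2 fold change -0.78 ± 0.08 SE, edgeR adjusted p = 0.000487). Hacl1, the lyase of the next step, averaged 246 ± 70.7 CPM in HKO livers and 332.5 ± 82.0 CPM in Flox livers (SD, n = 5 each; edgeR adjusted p = 0.218). The opposite-strand gene Btd, which overlaps Hacl1, had 22.7% of its counts.

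None of the 5 thioesterases and diphosphatases passed, although Nudt7 was called by DESeq2. Nudt7, a CoA diphosphatase, was at 79.2, 86.4, 149.1, 177.6 and 135.6 CPM in HKO 1 to 5, against 197.0, 143.2, 171.3, 281.3 and 251.1 CPM in Flox 1 to 5. The groups overlapped between HKO 4 and Flox 2. The thioesterases Acot4 and Acot8 were at 0.00262 and -0.21 as log2 fold changes. The diphosphatases Nudt12 and Nudt19 were at -0.06 and 0.05, and Acot8 and Nudt12 turned above 0 on unscaled FPKM. Acot8 overlaps Snx21 on the opposite strand, which had 49.1% of its counts.

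Of the 6 genes grouped as catalase, the oxidases and the aminotransferase Agxt, 3 fell and 2 did not pass. Dao, the D-amino acid oxidase, had too few counts to test. The 3 were 60% of the 5 tested, against 6.4% of all tested genes, and Agxt among them is not an oxidase. Agxt, which transaminates glyoxylate to glycine and in mouse lies in both peroxisomes and mitochondria, was at 121.1, 117.4, 94.8, 92.4 and 95.8 CPM in HKO 1 to 5, against 360.2, 216.7, 238.7, 199.8 and 211.8 CPM in Flox 1 to 5. Its level in HKO livers was 57.5% lower, and Flox 1 was far above the other Flox livers (log2 fold change -1.23 ± 0.16 SE, edgeR adjusted p = 0.00114). Leaving out Flox 1 gave -1.06, and the call stood. Hao1, the oxidase that makes glyoxylate from glycolate, was at 145.3, 141.8, 149.4, 129.5 and 127.3 CPM in HKO 1 to 5, against 246.5, 271.0, 225.2, 302.9 and 331.6 CPM in Flox 1 to 5. HKO livers were close together and 49.6% lower (log2 fold change -0.99 ± 0.10 SE, edgeR adjusted p = 0.000470). Pipox, which oxidises sarcosine and pipecolate, was at 152.4, 144.3, 136.6, 141.5 and 122.0 CPM in HKO 1 to 5, against 228.0, 240.3, 253.4, 251.7 and 246.3 CPM in Flox 1 to 5. Of all members it had the smallest p, with HKO livers 42.9% lower (log2 fold change -0.81 ± 0.07 SE, edgeR adjusted p = 0.000163).

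Catalase and urate oxidase, in the same organelle, did not pass. Cat, the second member by level at 951 FPKM, averaged 2756 ± 251 CPM in HKO livers and 2886 ± 139 CPM in Flox livers (SD, n = 5 each). With an edgeR adjusted p of 0.639, its log2 fold change of -0.07 ± 0.08 SE became 0.15 on unscaled FPKM and 0.39 with quantile normalization, which called it higher. Uox, which degrades urate in rodents, averaged 1359 ± 146 CPM in HKO livers and 1562 ± 285 CPM in Flox livers (SD, n = 5 each; edgeR adjusted p = 0.333), and its log2 fold change of -0.20 also turned above 0 in those fits. Dao, the D-amino acid oxidase, was too low to test, with at most 13 counts in any HKO liver and at most 13 in any Flox liver.

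Ratios to Cat within a liver do not depend on how libraries are scaled. Agxt counts were 3.78 ± 0.213% of Cat counts in HKO livers and 8.51 ± 2.25% in Flox livers (SD, n = 5 each). For Hao1 the ratio was 5.06 ± 0.445% in HKO livers and 9.52 ± 1.21% in Flox livers (SD, n = 5 each), and for Pipox it was 5.08 ± 0.508% in HKO livers and 8.47 ± 0.616% in Flox livers (SD, n = 5 each). In none of these did a HKO liver reach a Flox liver. The ratio of Uox to Cat was 49.8 ± 8.27% in HKO livers and 54.1 ± 9.82% in Flox livers, with overlap (SD, n = 5 each). These genes and Cat as their base were chosen after the values were seen, so no test is given, and a ratio shows unequal change, not which gene moved.

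**Figure D3:**
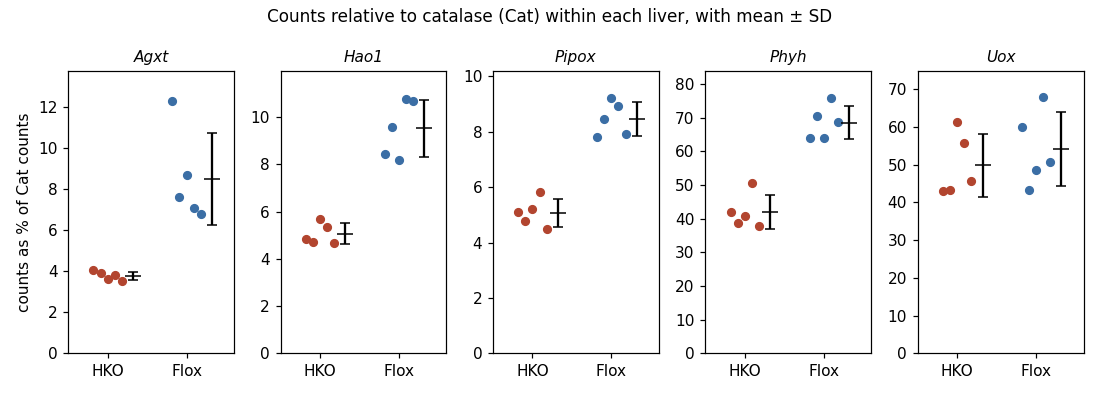
Counts of 5 genes as a percentage of Cat counts in the same liver, one point per liver, with the mean and SD of each group beside the points. HKO and Flox points are apart for Agxt, Hao1, Pipox and Phyh and overlap for Uox.

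The ether lipid enzymes, which make the precursors of plasmalogens, were the only role with all estimates above 0 with TMM scaling, and none passed, while Gnpat was at -0.01 when HKO 2, Flox 3 or Flox 4 was left out and Agps at -0.04 without Flox 1. Gnpat, the acyltransferase of the first step, was at 50.1, 54.9, 54.2, 47.5 and 52.4 CPM in HKO 1 to 5, against 57.9, 50.2, 47.8, 48.2 and 52.0 CPM in Flox 1 to 5. The groups covered the same range (log2 fold change 0.02 ± 0.07 SE, edgeR adjusted p = 0.905). A gene overlapping Gnpat on the opposite strand, 2810004N23Rik, had 45.6% of its counts. Agps, the alkyl synthase, and Far1, the fatty acyl-CoA reductase, were the lowest tested members at 1.21 and 0.531 FPKM, and their log2 fold changes were 0.07 and 0.43.

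In the membrane, Pxmp2, a channel for small solutes, was at 63.0, 57.1, 60.7, 55.5 and 53.3 CPM in HKO 1 to 5, against 89.5, 88.2, 92.7, 98.1 and 87.0 CPM in Flox 1 to 5. The groups were well apart, at 36.4% lower in HKO livers (log2 fold change -0.65 ± 0.06 SE, edgeR adjusted p = 0.000391). Lonp2, the matrix protease that removes damaged and unfolded enzymes, was at 376.5, 370.9, 370.6, 327.2 and 378.7 CPM in HKO 1 to 5, against 526.7, 501.7, 495.3, 479.2 and 472.2 CPM in Flox 1 to 5. HKO 4 was below the other HKO livers, and without HKO 4 and HKO 5 the call stood (log2 fold change over all livers -0.44 ± 0.06 SE, edgeR adjusted p = 0.00173). Slc25a17, the carrier for CoA and other cofactors, averaged 44.8 ± 4.38 CPM in HKO livers and 45.0 ± 5.40 CPM in Flox livers (SD, n = 5 each).

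**Figure D4:**
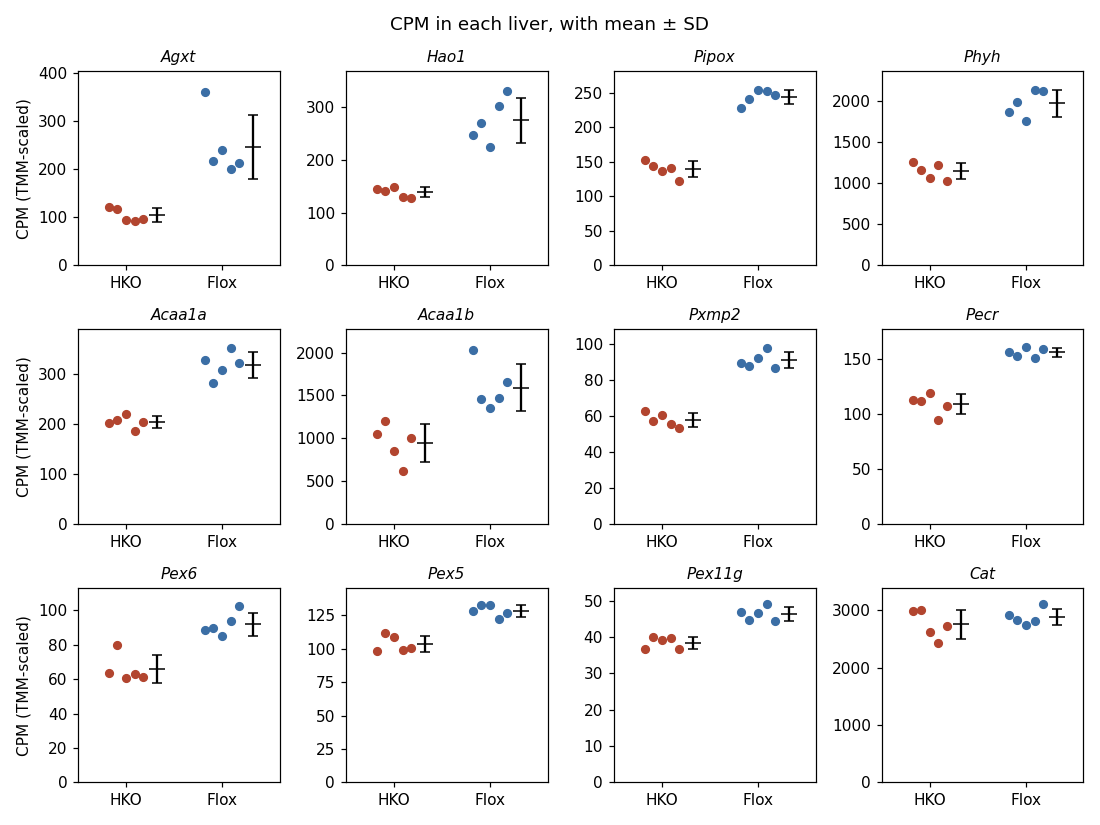
CPM of 12 members in each liver, one point per liver, with the mean and SD of each group beside the points; the y axes start at 0. HKO livers are below Flox livers without overlap in 11 panels, and Cat overlaps. The 11 were picked from the called members without overlap, so this split follows from the choice of panels. Of all 46 tested members, 18 were below without overlap.

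Calls differed in how far they held. Of the 19 falling members, 11 were called in all 20 other fits tried: Pex6, Acox2, Acaa1a, Decr2, Ech1, Pecr, Phyh, Hao1, Pipox, Agxt and Pxmp2. All HKO livers were below all Flox livers in 18 members, against 6.48% of all tested genes, and above them in 0 members, against 4.41%. The 18 were the called genes other than Pex16 and Scp2, with Hsd17b4. Pex5, Pex14, Pex16, Pex11g, Abcd3 and Scp2 lost their calls on unscaled FPKM. After the FPKM of each liver was divided by its TMM factor, an alternative chosen after seeing the data, all 19 were called and no other member was.

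By level per length over all 10 livers, the order of the members began with Scp2 (1026 FPKM), Cat (951 FPKM), Phyh (715 FPKM), Acaa1b (558 FPKM), Ehhadh (267 FPKM) and Uox (256 FPKM). Ehhadh and Uox, neighbours in that order, did not differ beyond their spread, with Ehhadh at 243 ± 75.5 FPKM in HKO livers and 291 ± 93.9 FPKM in Flox livers and Uox at 258.5 ± 31.4 FPKM in HKO livers and 253 ± 39.9 FPKM in Flox livers (SD, n = 5 each). The highest peroxins came far below, with Pex11a at 57.3 FPKM, Pex16 at 41.6 FPKM and Pex19 at 34.1 FPKM. The lengths implied by the deposited values run from 1.36 kb for Pxmp2 to 13.7 kb for Pex7, so the FPKM of Pex7 and of Acox3 (13.1 kb) counts on long gene models.

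Of 34 further genes of peroxisomal proteins, 12 fell (35.3%, against 6.4% of all tested genes), 0 rose and 22 did not pass, 10 estimates were above 0, and the median log2 fold change was -0.15. On unscaled FPKM 5 fell and 4 rose, where 396 of all 18065 tested genes fell and 3212 rose. Their median turned to 0.068 in that fit, where the median of all tested genes was 0.14. The 4 with the smallest p were Amacr, a racemase of branched acyl-CoAs (log2 fold change -0.79, edgeR adjusted p = 0.000149), Gstk1, a glutathione transferase (-0.73, adjusted p = 0.000487), Ephx2, an epoxide hydrolase (-0.73, adjusted p = 0.000796), and Slc27a2, a very-long-chain acyl-CoA synthetase (-0.61, adjusted p = 0.00179). Without HKO 4 and HKO 5, 7 of these genes fell, the 4 named among them, and 1 rose, Acnat2 (log2 fold change 0.71, edgeR adjusted p = 0.0469), a gene named after its values were seen. Of 4 genes of the fission machinery shared with mitochondria, Mff, a receptor for the fission GTPase, rose (log2 fold change 0.22, edgeR adjusted p = 0.0326), a call lost without HKO 4 and HKO 5 (log2 fold change 0.21), with no filter on low counts (0.22), after dividing FPKM by the TMM factor (0.18), with length and GC trends removed (0.15), and when HKO 1, 3 or 5 or Flox 2, 3 or 5 is left out alone (0.20 to 0.22).

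Among enzymes that handle the substrates or products of the peroxisomal oxidases, 3 of 6 fell (50%, against 6.4% of all tested genes). These were Urad, which acts after urate oxidase (log2 fold change -1.11, edgeR adjusted p = 0.00231), Prodh2, the hydroxyproline dehydrogenase whose pathway ends in glyoxylate (-0.68, adjusted p = 0.000528), and Grhpr, the glyoxylate reductase (-0.52, adjusted p = 0.00138). Ppara itself averaged 112.1 ± 8.89 CPM in HKO livers and 118.5 ± 18 CPM in Flox livers (SD, n = 5 each; edgeR adjusted p = 0.658), and its log2 fold change of -0.08 turned to 0.15 on unscaled FPKM and 0.05 with quantile normalization. Its partner Rxra fell just inside the threshold (log2 fold change -0.26, edgeR adjusted p = 0.0494), a call lost without HKO 4 and HKO 5 (log2 fold change -0.21), when any single liver but Flox 1 is left out (-0.29 to -0.21), on unscaled FPKM (-0.03), on FPKM divided by the TMM factor (-0.26), with upper-quartile factors (-0.23), with no filter on low counts (-0.26) and with quantile normalization (0.04). Of 25 known PPARα targets outside peroxisomes 15 fell (60%, against 6.4% of all tested genes), with a median log2 fold change of -0.38. Without HKO 4 and HKO 5, 9 fell (median -0.31), with quantile normalization 6 fell (median -0.14), and on unscaled FPKM 10 fell and 1 rose (median -0.17). Of all tested genes, 539 fell without HKO 4 and HKO 5, 871 with quantile normalization and 396 on unscaled FPKM, where 3212 rose. The 4 with the smallest p were the mitochondrial oxidation genes Cpt2 (log2 fold change -0.63), Acadvl (-0.40) and Hadhb (-0.36) and the fatty acid binding protein Fabp1 (-0.87), of which quantile normalization kept only Cpt2. Beside these counts, 4 of 9 hepatocyte markers fell, with a median of -0.46 (-0.24 on unscaled FPKM, and -0.062 with quantile normalization, where 3 fell and 1 rose), 3 of 10 macrophage, 4 of 9 stellate and fibroblast, 1 of 7 endothelial and 2 of 6 cholangiocyte markers rose, and all 6 kidney tubule markers were under 1 FPKM in all livers. Without HKO 4 and HKO 5, 4 hepatocyte markers fell, and 2 macrophage, 1 stellate and fibroblast, 0 endothelial and 1 cholangiocyte markers rose; the part of cell makeup in the peroxisomal result was not tested.

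Promoter letters were set beside these results for the 40 members with a RefSeq entry that was used, 49 promoters from 250 bases before to 50 bases after the start (assembly GRCm38.p6). Abcd2, Abcd4, Hsd17b4, Nudt12, Pex2, Pex19 and Pxmp2 were not matched. The direct repeat bound by PPARα with RXR was searched on both strands. It was read as a pair of AGGTCA motifs in one direction with any single base between them. This repeat was in 0 of 49 member promoters and in 0.0396% of all 32851 promoters searched. With up to 1 mismatch it was in 0 and 0.554%. At shares this small, 0 is the likely count for any 49 promoters, so the search cannot tell whether members have such sites. Bases outside these promoters were not searched. The single motif AGGTCA, part of that repeat, was in 12.2% of member promoters and 16.3% of all. The GC box GGGCGG was in 61.2% of member promoters and 35.7% of all. The median number of CpG pairs in 300 bases was 14 in members and 7 in all. All promoters include those of genes not tested here. Of tested genes with a promoter, 9473 had more than 10 CpG pairs and 2994 at most 10. Members split alike, at 29 and 10, and were not richer than tested genes by this count. GC boxes were not counted for tested genes alone.

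CpG pairs were counted for members on either side of a limit of 10. Of 39 tested members with a promoter, 10 had at most 10 CpG pairs and 6 of these fell (median log2 fold change -0.57), with Acot4, Uox, Pex26 and Pxmp4 not passing, while 12 of the 29 with more fell (median -0.31). Of all tested genes with a promoter, 9.45% of 2994 with at most 10 CpG pairs fell (median 0.13) and 6.57% of 9473 with more (median 0.0025). At a mean of 10 CPM or more the shares were 26.0% of 941 genes with at most 10 CpG pairs (median -0.13) and 10.8% of 5431 genes with more (median -0.06). The limit of 10 was chosen after the values were seen, and no test of the split is given. The sequences show both kinds, with the letters of each CpG pair in capitals, over the 250 bases before the start, 5′ to 3′ on the gene's strand. Agxt, Hao1 and Pipox had the lowest log2 fold changes of the members, and Pex13 and Gnpat stand for a peroxin and an enzyme that did not pass. All 5 were chosen after their values were seen. Falling members with many CpG pairs, such as Abcd3 (45) and Pex5 (39), are not shown. Of the 10 members with at most 10 CpG pairs, 9 were metabolic genes, and 5 of the 10 peroxins with more fell.
Agxt, chr1:93134990-93135239, plus strand: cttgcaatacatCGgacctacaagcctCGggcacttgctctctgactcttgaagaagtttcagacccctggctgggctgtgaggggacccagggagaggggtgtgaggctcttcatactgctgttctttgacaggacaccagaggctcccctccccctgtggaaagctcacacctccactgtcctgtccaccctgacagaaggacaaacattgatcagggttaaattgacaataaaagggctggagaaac
Hao1, chr2:134554353-134554602, minus strand: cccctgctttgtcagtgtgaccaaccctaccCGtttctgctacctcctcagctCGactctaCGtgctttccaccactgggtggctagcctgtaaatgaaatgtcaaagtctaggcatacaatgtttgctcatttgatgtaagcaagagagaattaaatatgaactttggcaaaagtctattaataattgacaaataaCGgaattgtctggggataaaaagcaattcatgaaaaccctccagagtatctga
Pipox, chr11:77893873-77894122, minus strand: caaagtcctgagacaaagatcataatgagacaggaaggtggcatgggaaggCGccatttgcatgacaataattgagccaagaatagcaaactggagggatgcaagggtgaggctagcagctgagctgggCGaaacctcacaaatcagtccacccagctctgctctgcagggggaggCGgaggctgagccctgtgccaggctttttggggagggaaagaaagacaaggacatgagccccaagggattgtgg
Pex13, chr11:23665884-23666133, minus strand: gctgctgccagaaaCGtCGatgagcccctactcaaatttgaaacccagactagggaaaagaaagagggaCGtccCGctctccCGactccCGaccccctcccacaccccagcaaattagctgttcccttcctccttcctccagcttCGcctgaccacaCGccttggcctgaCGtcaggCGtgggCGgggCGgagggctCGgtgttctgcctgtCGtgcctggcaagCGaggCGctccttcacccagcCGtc
Gnpat, chr8:124862783-124863032, plus strand: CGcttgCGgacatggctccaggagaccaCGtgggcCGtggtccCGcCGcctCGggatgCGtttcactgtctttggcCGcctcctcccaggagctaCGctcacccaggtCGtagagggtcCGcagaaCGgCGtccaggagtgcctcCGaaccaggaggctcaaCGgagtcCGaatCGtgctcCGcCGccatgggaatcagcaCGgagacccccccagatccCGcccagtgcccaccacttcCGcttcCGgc
Over the bases shown, Agxt has 2 CpG pairs, Pipox 3, Hao1 4, Pex13 17 and Gnpat 24.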

How the data were processed

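Liver RNA from 5 HKO and 5 Flox mice was sequenced after poly(A) selection with a dUTP library kit, per the labels' protocols. Tools listed in the submitters' processing notes, with no role or order, are StringTie 2.1.6, HISAT2 2.2.1, edgeR, DESeq2 and cutadapt 1.9. Build, annotation and strand setting are not given in the sources used here. Raw counts and FPKM of 31218 genes in 10 livers were deposited by the authors. In each liver the deposited FPKM are counts divided by gene length (largest SD of the log2 ratio 0.000934 over 7327 genes of at least 500 counts), with no TMM factor. Libraries held 52790000 to 60765120 counts, and TMM factors were 0.998 to 1.16 in HKO and 0.896 to 0.965 in Flox livers.

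Counts of all genes were filtered with filterByExpr, TMM scaled and tested with edgeR 4.0.16's robust quasi-likelihood test in R 4.3.3, and p-values were adjusted over 18065 tested genes at 0.05. The comparison was HKO against Flox without covariates. Alternatives used other scalings, limma 3.58.1 on log2(FPKM + 0.5) or log2(FPKM + 0.1), DESeq2 1.42.0, no filter, removal of length and GC trends, each liver left out in turn, and HKO 4 and HKO 5 left out together. The scripts' test was tried on simulated counts. The members and gene lists were chosen with earlier results of these data known. Values in every liver are given for up to 4 falling members of a role by smallest p, or for its highest member by FPKM where none fell; other lists name up to 4 genes by smallest p, and Ppara. Some genes outside the 47 members are not reported here. Each liver carries its own label, and p-values measure the spread between these livers. Promoters were read from RefSeq entries (GRCm38.p6). Promoters on chromosome 18 were not used, which leaves out Hsd17b4. Of the 47 members, 40 matched the remaining entries by symbol. Shared 31-base words come from GENCODE M21 transcripts, which may not be the annotation the authors used. Overlaps come from the gene coordinates deposited by the authors.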

Additional observations from a re-analysis of the deposited data

Results flagged for a closer look

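In 13 of the 122 groups of 5 livers examined (10.7%), 1 liver stood apart from the other 4 by more than Dixon's limit of 0.71 of the group's range, where chance marks about 1 group in 20. Flox 1 was the high liver for Ehhadh (1731 CPM, the other Flox livers at 856 to 974 CPM), Decr2 (322.5 CPM, the others at 281.5 to 292.0 CPM), Nudt12 (52.8 CPM, the others at 44.5 to 46.4 CPM), Agxt (360.2 CPM, the others at 199.8 to 238.7 CPM) and Me1 (227.5 CPM, the others at 145.1 to 164.1 CPM). Flox 2 was high for Pex10 at 7.73 CPM, and Flox 3 was low for Far1 at 2.91 CPM.

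Among HKO livers, HKO 2 was high for Pex6 at 80.1 CPM and for Hadhb at 219 CPM, and HKO 3 was high for Pex26 at 34.6 CPM. HKO 4 was low for Lonp2 at 327 CPM. HKO 5 was low for Rxra at 373 CPM and high for Me1 at 26.9 CPM, still far below the lowest Flox liver. The causes were not tested.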

How the results depend on the processing

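All 19 falling members kept their direction in all 20 alternatives. Members called higher were 1 with quantile normalization and 1 on FPKM with either pseudocount. Peroxins called lower were 1 on FPKM with either pseudocount and 3 without HKO 4 and HKO 5, and 3 to 5 with 1 liver left out; the other peroxisomal genes called lower were 6 with quantile normalization, 5 on FPKM with either pseudocount, where 4 were called higher and the median turned to 0.068 and 0.072 with 0.5 and 0.1 added, and 7 without HKO 4 and HKO 5, where 1 was called higher. The median log2 fold change of peroxins was -0.047 and -0.048 on FPKM with 0.5 and 0.1 added; that of metabolic genes was -0.19 with quantile normalization, -0.16 on FPKM, -0.24 without HKO 4 and HKO 5, and -0.44 to -0.29 with 1 liver left out. Dividing FPKM by the TMM factor, chosen after seeing the data, left all 46 members on the same side of the threshold.

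Signs turned for members near 0. On log2(FPKM + 0.5) and log2(FPKM + 0.1) the values were 0.13 and 0.14 for Pex7, 0.14 and 0.14 for Pex13, 0.088 and 0.091 for Pex2, 0.093 and 0.10 for Pex3, 0.13 and 0.13 for Crot, 0.012 and 0.013 for Acot8, 0.16 and 0.16 for Nudt12, 0.15 and 0.15 for Cat, 0.034 and 0.034 for Uox, 0.21 and 0.22 for Slc25a17, and 0.15 and 0.15 for Ppara. With quantile normalization they were 0.00043 for Pex7, 0.0091 for Hsd17b4, 0.26 for Crot, 0.39 for Cat, 0.22 for Uox, 0.038 for Slc25a17, 0.041 for Rxra and 0.050 for Ppara. With length and GC trends removed they were -0.070 for Acox3, -0.053 for Acot4 and 0.036 for Slc25a17; upper-quartile factors gave 0.014 for Slc25a17, and leaving out HKO 4 and HKO 5 gave 0.00090 for Pex7 and 0.059 for Slc25a17. With 1 liver left out, Acot4 ranged from -0.090 to 0.17, Agps from -0.043 to 0.13, Gnpat from -0.0081 to 0.064, Nudt19 from -0.024 to 0.12 and Slc25a17 from -0.052 to 0.062. The FPKM shifts go with the missing TMM factor; for the other settings the cause was not tested.

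Over all genes, 878 rose and 1156 fell in the main test, 3212 and 396 on log2(FPKM + 0.5), whose median was 0.14, 3253 and 396 on log2(FPKM + 0.1), with a median of 0.21, 1566 and 1626 in DESeq2, 873 and 871 with quantile normalization, 739 and 1304 with length and GC trends removed, 639 and 892 with no filter, and 454 and 539 without HKO 4 and HKO 5. No paired analysis was possible because the livers' titles share no number between groups and replicate numbers here follow accession order. HKO 4 and HKO 5 carry muscle and epidermal transcripts, 5 livers a group limit the precision of small changes, and counts were not corrected for overlapping genes.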
